A study of Mus musculus with 20 samples.

Results

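Interferon-treated fibroblasts that lacked the p150 form of ADAR1 were set against interferon-treated wild-type fibroblasts at known A-to-I RNA editing sites. A site entered if it had at least 50 reads in each of the 4 libraries compared, 2 from p150-knockout cells and 2 from wild-type cells. This left 5314 sites, in 231 genes or intergenic loci, of the 48425 sites listed. The editing level of a site is its edited reads over its coverage (the reads over the site), given in percent.

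All cells were mouse embryonic fibroblasts (MEFs), connective tissue cells grown from embryos, and editing was read by sequencing RT-PCR products of chosen loci. The p150-knockout line (labelled P150_KO) and the wild-type line (labelled ADAR1_WT) had both been given interferon, of a type, dose and duration that the sources used here do not give. The label of the wild-type line speaks of ADAR1 alone, and each genotype is a single line, so that the effect of the genotype and other differences between the lines cannot be told apart. The same 2 lines untreated, and ADAR1-null (ADAR1_NULL), ADAR2-null (ADAR2_NULL) and STAT2-null (STAT2_NULL) lines with interferon, are set beside these values below. Unless stated otherwise, the fits behind the site tests took in all 20 libraries, untreated null lines included, to estimate the spread between libraries. Some other groups also served as arms of further tests or to choose sites. No label ties the 2 libraries of a line to separate cultures, and p-values therefore speak of the spread between libraries alone, which may be technical.

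ADAR enzymes convert adenosine to inosine in base-paired RNA, and inosine is read as guanosine in sequenced cDNA. The Adar gene gives a constitutive form, p110, found mainly in the nucleus, and a longer form, p150, made from an interferon-inducible promoter and found mainly in the cytoplasm. ADAR2, the product of Adarb1, is a separate nuclear enzyme known for recoding sites in brain transcripts. Loss of p150 in mice is lethal in the embryo, with an interferon response driven by the sensor MDA5, and the many sites in inverted repeats of 3′ UTRs are known targets of ADAR1.

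Total coverage was 4389326 and 4775234 reads in the p150-knockout libraries and 5111796 and 4697335 in the wild-type libraries. The first p150-knockout library had the fewest sites with 50 reads, and it alone kept 1041 further sites out, against 166 for the second, 16 for the first wild-type library and 59 for the second. The 128 sites with a lowest coverage of 50 to 59 reads had mean levels of 0.207% in p150-knockout cells and 2.98% in wild-type cells, and the 137 sites just outside the rule, with 40 to 49 reads, had 0.233% and 1.15%. The assay measures no expression, so neither the loss of p150 nor the identity of the cells could be checked on transcript amounts. Of 8 fibroblast marker genes 1 was listed and 0 had a covered site, and 0 of the 5 listed sites in Adar and 0 of the 2 in Stat2 were covered in all 4 libraries. Edited reads differed between the 2 libraries of a group by more than counting noise, and the chi-square per degree of freedom was 7.97 between the p150-knockout libraries and 21.8 between the wild-type libraries.

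Editing was low across the covered sites in the treated p150-knockout cells. The 2 p150-knockout libraries had mean levels of 0.450% and 0.421% over the 5314 sites, and the 2 wild-type libraries had 2.73% and 2.95%. The difference was -2.41 points (SE 0.113), and the groups did not overlap. With 2 libraries against 2 there are 6 splits, so no exact permutation test can go below p = 0.333, which was the value here. Sites at 10% or more numbered 19 and 6 in the p150-knockout libraries, against 387 and 396 in the wild-type libraries. Sites at 50% or more numbered 3 and 2 in p150-knockout cells, against 65 and 63 in wild-type cells. In all 4 libraries together, 669 of the 5314 sites had no edited read.

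**Figure D1:**
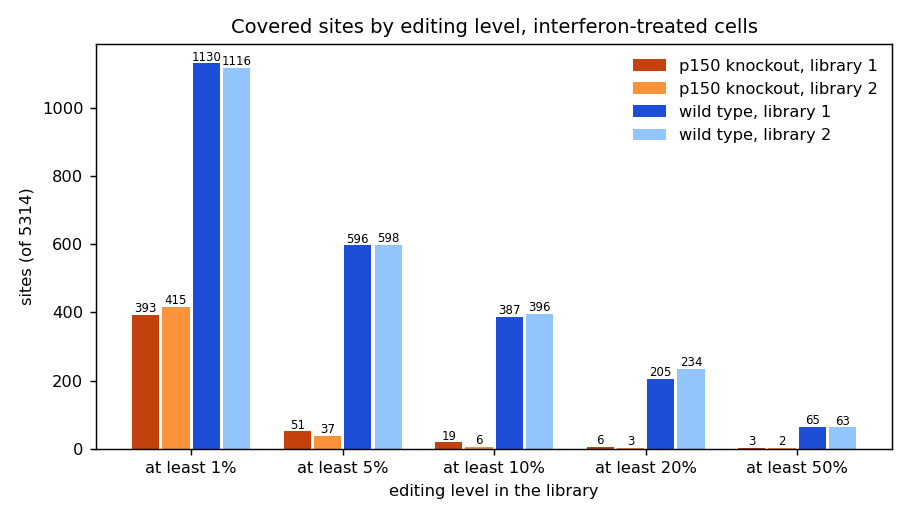
Number of the 5314 covered sites (vertical axis) that reached a given editing level (horizontal axis, percent) in each interferon-treated library, with p150-knockout libraries in orange and wild-type libraries in blue. At 10% or more the p150-knockout libraries had 19 and 6 sites and the wild-type libraries 387 and 396.

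Site by site, 1039 sites in 162 loci averaged 1% or more across the 4 libraries and were tested with edgeR's quasi-likelihood test, a call being an adjusted p (Benjamini-Hochberg) under 0.05. Of these, 664 sites in 125 loci were lower in p150-knockout cells, 63.9% of those tested, and 6 sites in 6 loci were higher, 0.577% of those tested. The other 369 sites were not called. The count of higher sites was unsteady, at 23 without the second p150-knockout library, 4 without either wild-type library, 1 with only the 4 compared libraries in the fit and 10 with limma. At 781 tested sites, 75.2%, both p150-knockout libraries lay below both wild-type libraries, and at 27 both lay above. Mean levels over the tested sites were 1.13% and 0.888% in p150-knockout cells (1.01% ± 0.173, SD, n = 2) and 12.9% and 14.0% in wild-type cells (13.4% ± 0.777, n = 2). The difference was -12.4 points (SE 0.563; exact permutation p = 0.333, the smallest possible).

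The minimum level shapes these shares, since 840 of the 1039 sites passed it only through wild-type cells, 61 only through p150-knockout cells and 138 at 1% or more in both. Without a minimum level, 649 of 4645 sites with an edited read were lower, 14.0%, and 21 were higher. Sites could also be taken by libraries outside the comparison. Among the 1031 covered sites with at least 1% in treated ADAR2-null cells, 615 were lower in p150-knockout cells, 59.7%, and 3 were higher. Their mean levels were 0.727% and 0.764% in p150-knockout cells and 12.3% and 13.3% in wild-type cells. In treated ADAR2-null cells 163 of the covered sites, in 58 loci, had 20% or more. Of these, 161 had both p150-knockout libraries below both wild-type libraries, beside 75.2% of the 1039 tested sites. The exceptions were a site each in Zfp324 and Igf2. The wild-type mean over the 163 was 41.7%, against 13.4% over the tested sites, and a high wild-type level favours such a separation.

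**Figure D2:**
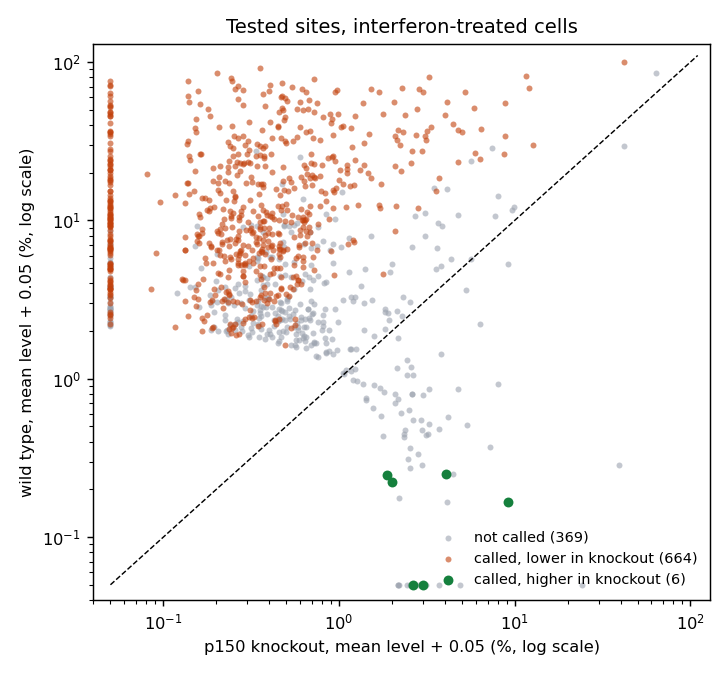
Mean editing level of each of the 1039 tested sites in treated p150-knockout cells (horizontal axis) and treated wild-type cells (vertical axis), as percent plus 0.05 on log scales, with the line of equal levels dashed. The 664 sites called lower in p150-knockout cells are orange, the 6 called higher are green and the 369 not called are grey.

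Of the 1039 tested sites 878 lay in 3′ UTRs, and so did most of those with the greatest decreases. Taking in each gene the called site with the greatest difference among those whose groups did not overlap, the 24 greatest decreases held 23 sites in 3′ UTRs and 1 between genes. At 17 of them both p150-knockout libraries were under 1%, and over all 24 the levels were 0% to 17.1% in p150-knockout libraries and 36.7% to 96.6% in wild-type libraries. edgeR's adjusted p ran from 8.10e-08 to 0.000160, and no library had fewer than 58 reads. The top of this ranking was Mmgt1, which encodes a subunit of the membrane protein complex of the endoplasmic reticulum. Its site at position 53840820 of chromosome X (mm9, as are all positions here) had 0.371% and 0.234% in p150-knockout cells and 87.6% and 96.6% in wild-type cells, a difference of -91.8 points (SE 4.50, adjusted p = 1.36e-07). A 3′ UTR site of 2900026A02Rik (chromosome 5, 113516516) had 0.147% and 0.157% in p150-knockout cells and 82.9% and 86.8% in wild-type cells. In both genes the p150-knockout libraries lay close together and far below either wild-type library.

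**Figure D3:**
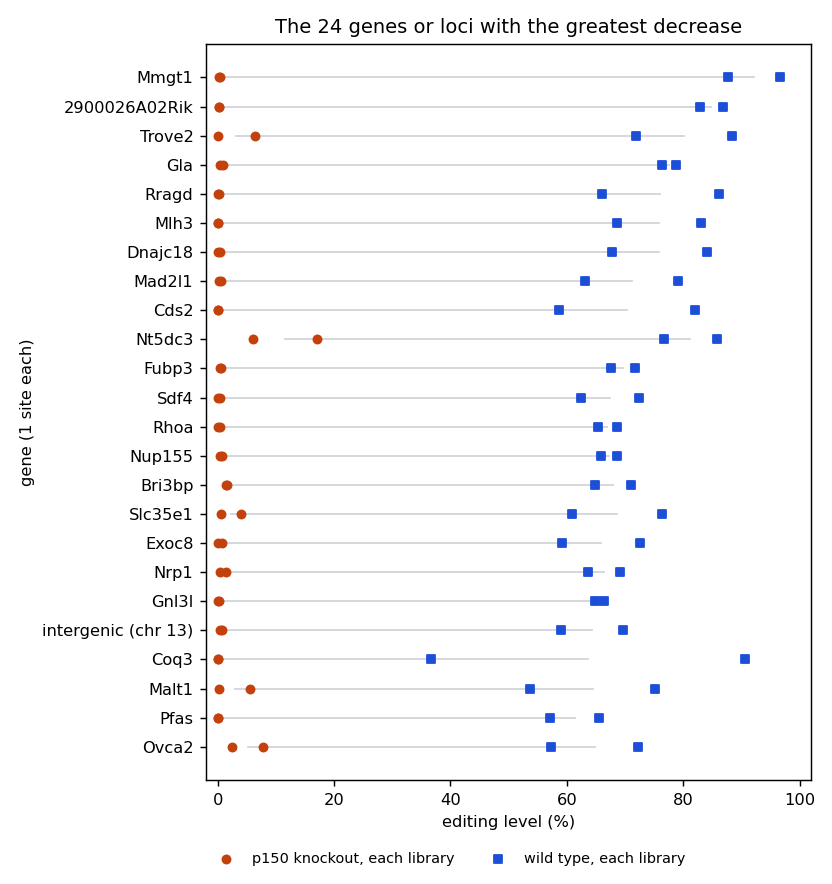
Editing level (percent, horizontal axis) in each library at the 24 sites with the greatest decrease, 1 per gene or locus, with p150-knockout libraries as orange circles, wild-type libraries as blue squares and a line between the group means. The p150-knockout libraries lie between 0% and 17.1%, below every wild-type library, which lie between 36.7% and 96.6%.

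Sites with no edited p150-knockout read stood among these 24. In Mlh3, a mismatch repair gene, the site at chromosome 12, 86576054 had 0% in both p150-knockout libraries and 83.1% and 68.6% in wild-type cells. Over the 992 p150-knockout reads, 3 edited reads would have given 0.302%, the upper limit that a count of 0 allows. Cds2, which makes CDP-diacylglycerol for phosphatidylinositol synthesis, had 0% over 919 p150-knockout reads (limit 0.326%), against 58.7% and 82.1% in wild-type cells (chromosome 2, 132135369). Coq3, a methyltransferase of ubiquinone synthesis, had 0% over 498 p150-knockout reads (limit 0.602%) and 36.7% and 90.7% in wild-type cells, so its wild-type libraries were far apart. Pfas, an enzyme of purine synthesis, had 0% over 215 p150-knockout reads (limit 1.40%) and 65.5% and 57.1% in wild-type cells. Such limits cover counting error only, since amplicon reads without molecular identifiers are not independent molecules. Of the 386 sites with at least 10% in wild-type cells, 64 had no edited p150-knockout read.

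The residue in p150-knockout cells was small at most strongly edited sites and varied between them. Over those 386 sites, in 99 loci, the p150-knockout mean was under 1% at 304, from 1% to under 5% at 62 and 5% or more at 20. The median site kept 1.42% of its wild-type level (quartiles 0.504% and 4.08%). At 365 of the 386 the decrease was called, and at 21 it was not. At 6 sites the p150-knockout mean was 50% or more of the wild-type mean and at 15 it was 20% to under 50%. These shares were grouped by the wild-type level, which is also their denominator, and are a description.

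In genes with many sites the decreases ran along the amplified stretch, though not every site was called. The 27 loci with at least 10 tested sites held 547 sites, of which 402 were lower (over all tested sites 63.9% were), and the share within a locus ran from 25% to 95%. All tested sites were lower at 26 loci, none was called at 36, and 1 locus had only a higher call. Mad2l1, which encodes the spindle checkpoint protein MAD2, had the most tested sites, 38 over 787 bases of its 3′ UTR, of which 35 were lower. Their median level was 0.301% in p150-knockout cells, with a highest mean of 3.79%, and 9.88% in wild-type cells, with a highest mean of 71.1%. At the highest of them (chromosome 6, 66490075) the p150-knockout libraries had 0.494% and 0.220% and the wild-type libraries 63.1% and 79.2% (adjusted p = 1.06e-06).

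Gla, which encodes the lysosomal enzyme alpha-galactosidase A, had 26 tested sites over 856 bases of its 3′ UTR, of which 22 were lower. None of its p150-knockout means was above 1.21% (median 0.259%), while the wild-type median was 23.0%, with a highest mean of 77.6%. At that highest site (chromosome X, 131123090) the p150-knockout libraries had 0.355% and 0.982% and the wild-type libraries 76.3% and 78.8% (adjusted p = 8.10e-08). Rpa1, the large subunit of replication protein A, which binds single-stranded DNA, had 20 tested sites within 122 bases, of which 19 were lower. Its medians were 0.314% in p150-knockout cells and 13.1% in wild-type cells. Mdc1, a mediator of the DNA damage checkpoint, had 13 of 16 sites lower, with medians of 0.373% and 21.8% in p150-knockout and wild-type cells. Iqgap1, a scaffold protein of the actin cortex, had 18 of 19 lower. At the other end stood 9930104L06Rik, with 3 of 12 lower and a p150-knockout median of 2.08% beside a wild-type median of 4.70%, and Tcp11l1, with 3 of 10 lower. Dnajc1, which encodes a J-domain protein of the endoplasmic reticulum, had 24 lower and 1 higher of 37 sites, and its highest site had 0% and 5.39% in p150-knockout cells and 31.2% and 38.0% in wild-type cells.

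**Figure D4:**
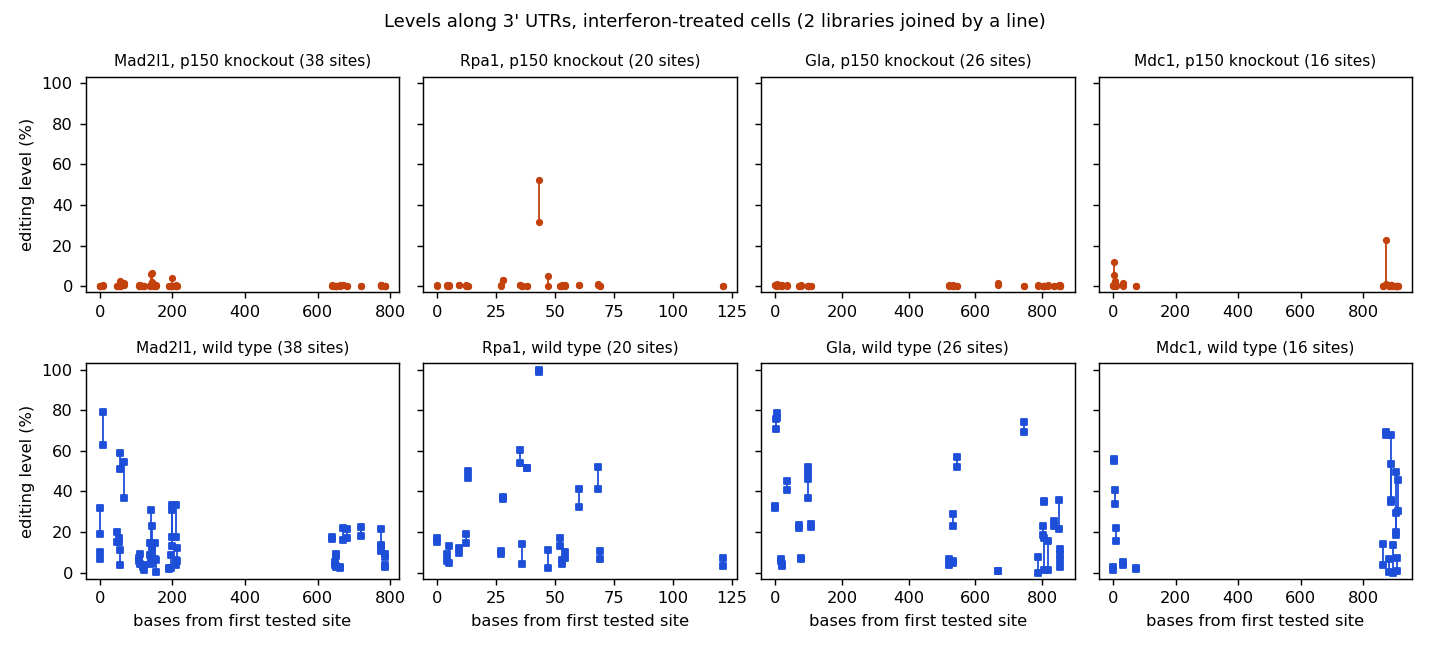
Editing level (percent, vertical axis) at each tested site of 4 genes against its distance in bases from the first tested site, with treated p150-knockout cells in the upper row and treated wild-type cells in the lower row, and a line joining the 2 libraries of a site. The p150-knockout levels are at 11.9% or below but for single sites in Rpa1 (31.9% and 52.2%) and Mdc1 (22.9% in 1 library).

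A single Rpa1 site was the exception within its gene. At chromosome 11, 75114517 the p150-knockout libraries had 31.9% and 52.2%, against 99.0% and 100% in wild-type cells, a decrease of -57.4 points (SE 10.2, adjusted p = 4.80e-05). The groups did not overlap, and the site kept 42.3% of its wild-type level. The same site had 36.8% in treated ADAR1-null cells, where both forms of ADAR1 are missing per the label, 95.2% in ADAR2-null and 78.2% in STAT2-null cells. In Mdc1 the site at chromosome 17, 35995550 had 22.9% and 1.02% in p150-knockout cells, so that 1 library carried its mean, and 69.3% and 67.7% in wild-type cells (adjusted p = 0.00529). Without the second p150-knockout library its adjusted p was 0.0609. Nt5dc3 (chromosome 10, 86300002) had 17.1% and 6.08% in p150-knockout cells and 76.7% and 85.7% in wild-type cells (adjusted p = 7.99e-05). This was the highest p150-knockout mean among the 24 greatest decreases, 11.6%.

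Decreases of more than 50 points were also seen in genes of several other functions. Trove2 (Ro60), which encodes an RNA-binding protein of Y RNA particles, had 0% and 6.37% in p150-knockout cells and 71.9% and 88.3% in wild-type cells. Rragd, a Rag GTPase that relays amino acid signals at the lysosome, had 0.177% and 0% in p150-knockout cells and 86.1% and 66.1% in wild-type cells. Rhoa, a GTPase that organises actin, had 0.353% and 0.119% in p150-knockout cells and 65.3% and 68.6% in wild-type cells. In each of the 3 genes every wild-type library was above 65%. Nup155, a scaffold protein of the nuclear pore, had 0.413% and 0.725% in p150-knockout cells and 65.9% and 68.7% in wild-type cells. Exoc8, an exocyst subunit, had 0.701% and 0% in p150-knockout cells and 59.2% and 72.6% in wild-type cells. Nrp1, a receptor for semaphorins and VEGF, had 0.364% and 1.49% in p150-knockout cells and 63.6% and 69.1% in wild-type cells. Malt1, the paracaspase of NF-κB signalling, stood apart through its first p150-knockout library, with 5.62% and 0.274% beside 53.8% and 75.2% in wild-type cells. Ovca2 kept more than most, with 2.49% and 7.83% in p150-knockout cells and 72.2% and 57.3% in wild-type cells. The other 7 loci of the 24 (Dnajc18, Fubp3, Sdf4, Bri3bp, Slc35e1, Gnl3l and an intergenic locus on chromosome 13) had p150-knockout libraries between 0% and 3.94%.

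Most tested sites lay in 3′ UTRs, and decreases were called in every class of annotation. By annotation, 586 of 878 tested 3′ UTR sites were lower and 4 higher. The share lower, 66.7%, was near the 63.9% over all tested sites, most of which are these same sites. Of 64 intronic sites 30 were lower (46.9%) and 1 higher. Of 42 intergenic sites 21 were lower (50%), and of 27 noncoding RNA sites 14 were lower (51.9%) and 1 higher. Of 2 tested 5′ UTR sites 1 was lower. At coding positions 10 of 19 nonsynonymous and 2 of 7 synonymous sites were lower, and none was higher. The median difference was -6.57 points in 3′ UTRs, -3.30 in introns and -3.55 at nonsynonymous sites, beside -6.14 over all tested sites. Levels in wild-type cells differed between these classes too, with medians of 7.02%, 4.11% and 4.90%, and the differences between classes were not tested.

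Cog3, which encodes a subunit of the Golgi tethering complex COG and carries an isoleucine-to-valine site known for ADAR2, kept most of its editing. It had 67.4% and 60.2% in p150-knockout cells and 86.2% and 85.0% in wild-type cells (chromosome 14, 76119526). The difference of -21.8 points (SE 3.65) was not called by edgeR (adjusted p = 0.0681) although the groups did not overlap, and limma called it (adjusted p = 2.53e-04). The site had 31.3% in treated ADAR1-null, 12.8% in ADAR2-null and 66.6% in STAT2-null cells. The glutamine-to-arginine site of Flna, which encodes the actin-binding protein filamin A, was low in both lines. It had 0.286% and 1.89% in p150-knockout cells and 4.51% and 4.88% in wild-type cells, and the groups did not overlap. The difference did not pass edgeR's test (adjusted p = 0.112), but limma called it (adjusted p = 0.0255). An intronic Flna site had 62.9% and 20.3% in p150-knockout cells and 14.1% and 44.9% in wild-type cells, overlapping widely.

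Gria3, which encodes a glutamate receptor subunit and has an arginine-to-glycine site, had 15.8% and 1.70% in p150-knockout cells and 32.1% and 36.2% in wild-type cells. The decrease of -25.4 points passed edgeR's threshold narrowly (adjusted p = 0.0499) and missed it without either wild-type library or without the second p150-knockout library (0.0597 to 0.347). Treated ADAR1-null, ADAR2-null and STAT2-null cells were low there too, with means of 0.169%, 7.23% and 0.345%. Gria3 was a listed neuronal gene, the sole one of 7 neuronal markers with a covered site. An intronic site of Adarb1, the ADAR2 gene itself, had 0.0523% and 0.229% in p150-knockout cells and 13.1% and 22.2% in wild-type cells (chromosome 10, 76786805, edgeR's adjusted p = 1.03e-05). Untreated p150-knockout libraries had 6.86% and 6.63% at this Adarb1 site. Of the 20 tested sites in the 6 genes grouped as ADAR2-type, 12 were lower, all in 3 of the genes, with a median difference of -4.06 points, beside 63.9% lower and a median of -6.14 points over all tested sites.

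Blcap, which encodes a small membrane protein recoded at several positions, was lower at each of its 3 tested sites. The tyrosine-to-cysteine site (chromosome 2, 157383885) had 11.8% and 5.39% in p150-knockout cells and 24.7% and 27.5% in wild-type cells, a difference of -17.5 points (SE 3.50, adjusted p = 0.0111), and kept 33.0% of its level. The glutamine-to-arginine site had 4.83% and 0.689% in p150-knockout cells and 12.7% and 11.2% in wild-type cells (adjusted p = 0.00758). The lysine-to-arginine site had 0.181% and 0.359% in p150-knockout cells and 8.38% and 8.26% in wild-type cells (adjusted p = 2.29e-05). The first and second of these calls were lost without the second p150-knockout library, at adjusted p = 0.0975 and 0.130. Treated ADAR1-null cells had 0.174% at the tyrosine-to-cysteine site.

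Ccni and Ncstn had recoding sites at or near 0 in p150-knockout cells. Ccni, which encodes cyclin I, had 0.171% and 0% at its arginine-to-glycine site in p150-knockout cells and 26.7% and 34.3% in wild-type cells (chromosome 5, 93618610, adjusted p = 5.17e-05). Ncstn, the gamma-secretase subunit nicastrin, had 0% over 317 p150-knockout reads (limit 0.946%) and 8.76% and 11.4% in wild-type cells (adjusted p = 0.00521). Both genes' p150-knockout libraries lay below both wild-type libraries. Of 2 lysine-to-arginine sites called in the zinc finger gene Zfp397, both had 0% in p150-knockout cells and 2.41% to 4.27% in wild-type libraries, and both calls were lost without either p150-knockout library, the higher site's also without the first wild-type library (adjusted p = 0.0544). A threonine-to-alanine site of uc008wxi.1 had 3.75% and 0.663% in p150-knockout cells and 16.6% and 24.3% in wild-type cells. A second Cog3 site, lysine-to-arginine, was called at low levels (0.343% and 0.416% in p150-knockout cells, 1.75% and 2.79% in wild-type cells, adjusted p = 0.0438) and was lost without any 1 of the 4 libraries.

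Ppwd1, a cyclophilin of the spliceosome, had means of 8.56% to 12.0% in all treated lines at its serine-to-glycine site, with 10.6% and 9.11% in p150-knockout cells and 11.1% and 12.9% in wild-type cells (difference -2.19 points, SE 1.17, adjusted p = 0.728). The treated ADAR1-null, ADAR2-null and STAT2-null lines had 8.56%, 8.58% and 10.9% there. A noncoding RNA site of uc012aji.1 also kept much of its level, with 7.64% and 17.6% in p150-knockout cells and 33.1% and 26.7% in wild-type cells, and its call (adjusted p = 0.0322) was lost without the first library of either line (0.227 for p150-knockout and 0.125 for wild type). A synonymous site of Son, a splicing factor, had 0.469% and 0.388% in p150-knockout cells and 14.6% and 0% in wild-type cells and was not called (adjusted p = 0.217). A site of the adaptor gene Sh3bp2 that is annotated as a stop codon changed to tryptophan had 7.56% and 1.80% in p150-knockout cells and 1.12% and 0.513% in wild-type cells. It was not called by edgeR (adjusted p = 0.0658) but was by limma (adjusted p = 0.0206).

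**Figure D5:**
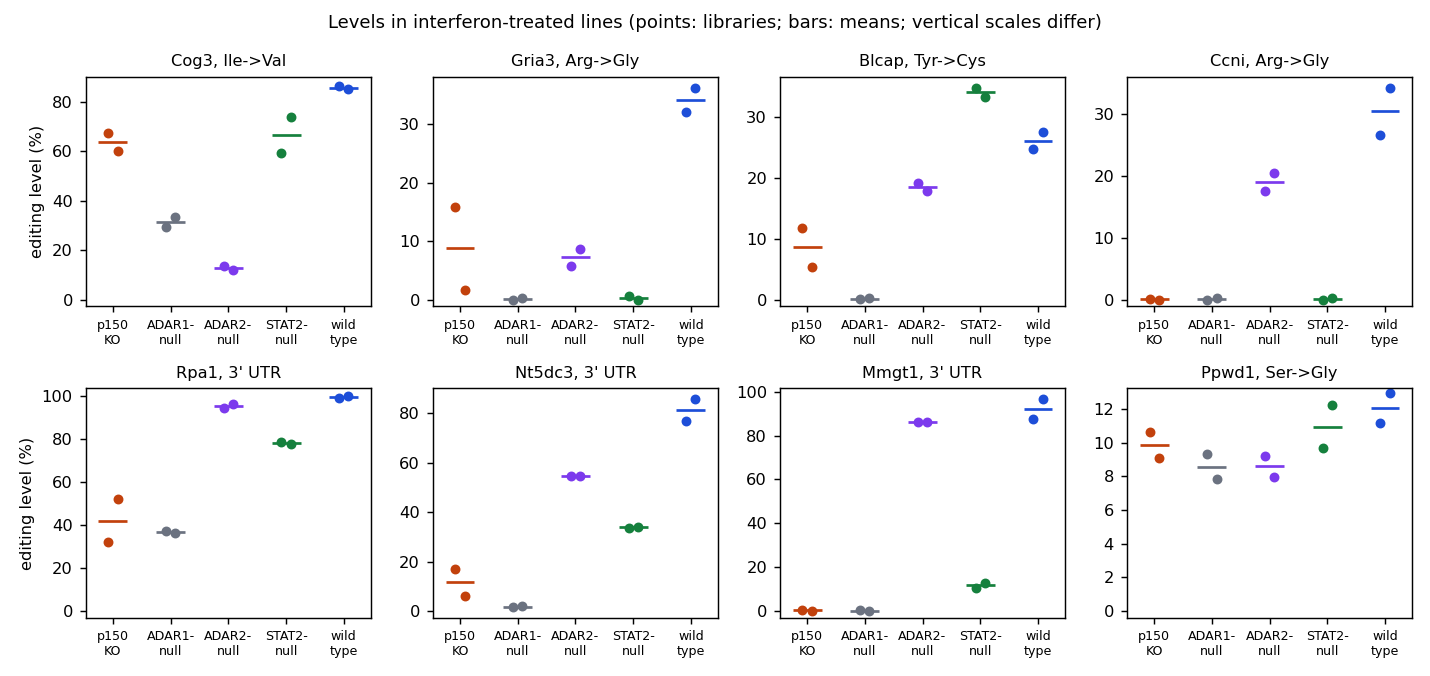
Editing level (percent, vertical axis, scales differ) of 8 sites in the interferon-treated lines, with a point for each of the 2 libraries and a bar for their mean. Mmgt1 and Ccni are near 0 in p150-knockout cells, Rpa1 and Cog3 keep 42.3% and 74.5% of the wild-type level and Ppwd1 has means of 8.56% to 12.0% throughout.

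Gene groups were read against all tested sites, of which 63.9% were lower with a median difference of -6.14 points. The lists were drawn up with earlier results of these data known, so their counts are descriptions. Mad2l1 and Rpa1, the pair listed as 3′ UTR duplex genes, had 54 of 58 sites lower (median -10.3 points). DNA repair genes (Mdc1, Mlh3 and Rpa1) had 36 of 44 lower (median -9.95). Lysosomal genes (Gla and Rragd) had 31 of 35 lower, with a median of -24.5 points. Genes of the nucleolus and nuclear pore (Gnl3l, Ncl and Nup155) had 44 of 65 lower (median -5.43) and metabolic genes (Cds2, Coq3 and Nt5dc3) 18 of 25 (median -7.82). RNA-binding genes (Fubp3, Lsm11 and Ncl) had 22 of 45 lower (median -5.96), genes of the secretory pathway (Cog3, Mmgt1 and Sdf4) 11 of 20 (median -4.12), and chaperone genes (Dnajc1 and Dnajc18) 31 lower and 1 higher of 45 (median -6.69). Nrp1, alone in the group of adhesion and growth factor genes, had 2 of 3 lower. Sites of a gene share its amplified transcript and are not independent.

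Among the members of these groups, Ncl, which encodes the nucleolar protein nucleolin, had 0% and 1.23% at its highest site in p150-knockout cells and 60.8% and 39.5% in wild-type cells. Lsm11, a protein of the U7 particle that processes histone mRNA, had 0.262% and 0.142% in p150-knockout cells and 7.38% and 19.0% in wild-type cells. The Iqgap1 site at chromosome 7, 87857170 was deep, with 14006 reads in p150-knockout cells and 16309 in those of wild type. It had 0.371% and 0.491% in p150-knockout cells and 22.0% and 21.6% in wild-type cells (SE of the difference 0.204 points, adjusted p = 1.84e-07). Treated ADAR2-null cells were low at this Iqgap1 site too, with a mean of 1.59%, and at the Lsm11 site, with 0.138%. At the Ncl site they had 34.9%. What set the ADAR2-null and wild-type lines apart at Iqgap1 and Lsm11 was not tested. Ncl and Lsm11 had wild-type libraries that were far apart, and Iqgap1 did not.

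Of the 20 genes put in the interferon and innate immunity group 4 were listed and only Ifnar1, a subunit of the type I interferon receptor, had tested sites. None of its 7 intronic sites was lower and 1 was higher. At chromosome 16, 91490967 it had 2.73% and 1.19% in p150-knockout cells, 24 of 878 and 14 of 1175 reads, and 0.342% and 0% in wild-type cells (difference 1.79 points, SE 0.790, adjusted p = 0.0305). Without the first p150-knockout or the second wild-type library the adjusted p was 0.131 and 0.138. Its highest site (91490679) had 0% and 0.581% in p150-knockout cells and 0% and 18.4% in wild-type cells, a level from 1 library. The group did not take in every gene of this kind. Outside it, Dtx3l had 6 of 7 tested sites lower, and the 1 tested site of Ifi203 was not called.

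The other 5 sites called higher are named after their values were seen. Dnajc1 (chromosome 2, 18137060) had 17.7% and 0.431% in p150-knockout cells and 0% and 0.235% in wild-type cells (adjusted p = 0.0341), so 1 library held nearly all of its edited reads. Fbxl17 (chromosome 17, 63403401) had 0.713% and 7.32% in p150-knockout cells and 0.195% and 0.203% in wild-type cells, again mostly from 1 library. Iws1 had 1.94% and 1.68% in p150-knockout cells and 0.300% and 0.0970% in wild-type cells. Of these, Iws1 alone had like levels in both p150-knockout libraries. Sh2d5 had 1.22% and 4.69% in p150-knockout cells and 0% over 288 wild-type reads (limit 1.04%). A site of uc012aji.1 had 3.80% and 1.41% in p150-knockout cells and 0% over 398 wild-type reads (limit 0.754%).

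High levels from a single library were found in both lines. At 9 tested sites the first p150-knockout library had 10% or more and the second under 1%, and at 1 site the reverse held. In wild-type cells 19 sites had this split through the first library and 29 through the second. Cycs, which encodes cytochrome c, had 78.2% and 0% in p150-knockout cells (220 and 325 reads) and 0% and 0.471% in wild-type cells. The Cycs site was not called by edgeR (adjusted p = 0.101) but was by limma (adjusted p = 0.0437). A 3′ UTR site of uc007ahf.1 had 48.4% and 0% in p150-knockout cells and 0% in both wild-type libraries (adjusted p = 0.0574), and a site of Zfp324 had 18.4% and 0.761% in p150-knockout cells and 12.0% and 11.2% in wild-type cells. These sites hold 3 of the 10 highest p150-knockout means by gene, and what set the single libraries apart was not tested.

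The loss with interferon was set against the loss in untreated cells, by the difference of the 2 differences on the log odds scale. Of 839 sites tested, 144 in 54 loci had a greater loss with interferon, 17.2%, and none a smaller one. An unadjusted edgeR p under 0.05 was found at 285. The 839 had a mean level of 1% or more over the 8 libraries. Sites high in treated wild-type cells alone can pass that minimum, and a high level there makes for a greater loss. The split by direction is therefore a description. Of the 144, 143 were also called lower in treated cells, where 63.9% of all tested sites were. Both tests use the same 4 treated libraries, so this overlap is no separate support. In 2900026A02Rik the difference between p150-knockout and wild-type cells was -84.7 points with interferon and -3.50 untreated (adjusted p of the change 0.0296). In Iqgap1 it was -21.4 points with interferon and -0.355 untreated (adjusted p = 0.00120), and in Mmgt1 -91.8 and -14.2 (adjusted p = 0.00560). The untreated p150-knockout and wild-type cells had 0.377% and 0.732% at this Iqgap1 site, and 0.398% and 14.6% at Mmgt1. At Gria3 the difference was -25.4 points with interferon and -25.4 untreated, and at Cog3 -21.8 and -26.0 (adjusted p = 0.914 and 0.726). The count depended on the fit: 41 sites with the 8 compared libraries alone, and 61, 76 and 85 without the first untreated, the second untreated or the first treated p150-knockout library.

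Over the tested sites the treated p150-knockout libraries had 1.13% and 0.888%, and the untreated ones 0.754% and 0.756%, with medians over sites of 0.342% and 0.327%. The treated wild-type mean was 13.4% and the untreated 3.09%, so the treated p150-knockout mean also lay below that of untreated wild-type cells. Treated STAT2-null cells, which lack a transcription factor of the interferon response, had a mean of 2.58% over these sites and ADAR2-null cells 9.62%.

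Against treated ADAR1-null cells, which per the label lack p110 as well, the p150-knockout cells differed at few sites. Of 197 sites tested, 12 were higher in p150-knockout cells, 6.09%, and 2 were lower, 1.02%, in 11 loci in all. The 197 had a mean level of 1% or more over these same 4 libraries. Among the 5314 sites, 393 and 415 reached 1% in the p150-knockout libraries and 261 and 172 in the ADAR1-null libraries. The split by direction is therefore a description. The 12 included the tyrosine-to-cysteine and glutamine-to-arginine sites of Blcap, a pair of Mdc1 sites (chromosome 17, 35994679 and 35994685) and the Nt5dc3 site. The Blcap tyrosine-to-cysteine site had a mean of 8.60% in p150-knockout and 0.174% in ADAR1-null cells (adjusted p = 3.70e-05), and the first of the Mdc1 sites had 8.72% and 0.0502% (adjusted p = 0.00306). Sites of Ovca2, Ankrd28, Sh3bp2, 9930104L06Rik and the Flna intron were also among them. The 2 lower sites were in Als2cl, with 0.653% in p150-knockout and 9.08% in ADAR1-null cells, and Iqgap1 (87857166), with 0.927% and 1.08% in the p150-knockout libraries and 5.72% and 4.47% in the ADAR1-null libraries. No site was called with only the 4 compared libraries in the fit, while edgeR with all 20 libraries gave 48 at an unadjusted p under 0.05 and limma called 25. The 14 calls became 28 and 61 without the first or second p150-knockout library, and 3 and 4 without the first or second ADAR1-null library. The p150-knockout libraries are shared with the comparison against wild type.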

How the data were processed

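RNA editing was read in MEF lines by RT-PCR of 557 loci, whose products were pooled per sample and indexed in 15 PCR cycles, per the labels' protocols. Reads were handled with BWA and SAMtools against mm9, per the submitters' processing notes; their versions and filters are stated nowhere in the sources used here. Per the file headers, the authors' tables, 1 per library, hold coverage and edited reads per site as counts and the editing level as a fraction. Levels were recomputed from the counts. Positions are printed as deposited; whether they start at 0 or 1 is not stated. The design text names a further line, not analysed here, and no sequence around sites is given.

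Sites needed 50 reads in each compared library and, for tests, a mean level of 1%. Edited and unedited reads were fitted with edgeR 4.0.16 (R 4.3.3; methylation design, glmQLFit, glmQLFTest, 1 coefficient per group, all 20 libraries), two-sided, with Benjamini-Hochberg adjustment over all tested sites. limma 3.58.1 on log2 odds with 2 reads added to each count was an alternative. Intergenic sites within 5 kb were 1 locus. An upper limit at a level of 0 is that of 3 edited reads over the group's reads.

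Members, gene lists and tests were chosen with earlier results of these data known. The sites named were, among called sites whose groups did not overlap and keeping for each gene its most changed site, the 24 greatest decreases and 8 greatest increases (1 was found). To these were added the 10 genes with the highest p150-knockout level, the highest site of each listed gene, and the nonsynonymous sites that were called or highest in their gene. Of the gene names in the files that have a tested site, 124 were current symbols in RefSeq's GRCm38.p6 table, 8 were synonyms and 20 were unmatched and are given as in the files. Same-numbered libraries of both lines did not deviate together (correlation of deviations -0.00412), so the numbers were not taken to pair them. Some named sites and 1 gene list are not reported here. Tables came from pandas 2.3.3, scipy 1.17.1 and numpy 2.4.6 under Python 3.11.15, and figures from matplotlib 3.10.9.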

Additional observations from a re-analysis of the deposited data

Results flagged for a closer look

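The loss of editing in p150-knockout cells differed between interferon-treated and untreated cells at 144 of 839 sites by edgeR's interaction test (Benjamini-Hochberg adjusted p under 0.05), and the 20 of these among the 56 sites named by rule are given here. The values are the p150-knockout minus wild-type difference with interferon less the same difference untreated, in points, so a negative value is a greater loss with interferon. Among genes with the greatest decreases they were -77.6 in Mmgt1, -81.2 in 2900026A02Rik, -64.1 in Gla, -70.3 in Mlh3, -40.7 in Mad2l1, -67.5 in Sdf4, -55.6 in Nup155 and -60.1 in Bri3bp. They were -63.8 in Slc35e1, -55.3 in Exoc8, -60.3 at the intergenic locus of chromosome 13, -63.9 in Coq3, -52.1 in Malt1 and -45.4 in Ovca2. In other named genes they were -19.9 in Rpa1, -7.34 in the Adarb1 intron, -13.3 in Lsm11, -56.1 at position 147420072 of Gnl3l, -21.0 in Iqgap1 and -6.07 at the lysine-to-arginine site of Blcap. At the Adarb1 site wild-type means were 16.9% untreated and 17.7% treated. The p150-knockout means there were 6.75% untreated and 0.141% treated. The test is on the log odds scale, and changes as great in points did not pass it in Dnajc18 (-69.0, adjusted p = 0.949), Fubp3 (-69.1, 0.0847), Rhoa (-65.7, 0.0843), Nrp1 (-64.4, 0.0651) or at Cds2 position 132135369 (-54.1, 1). With 2 libraries a group, no group was large enough for a search for single outlying samples.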

How the results depend on the processing

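The count of 670 called sites ran from 460 (only the 4 compared libraries in the fit) to 728 (limma) over the other fits and filters, and from 512 to 672 with a compared library left out in turn; 718 were called at 20 reads, 607 at 100 reads and 670 with no minimum level. A minimum level of 5% leaves fewer sites to test and gave 384. With the replicate number as a block it was 676, of which 668 were lower and 660 shared with the 664; among the 56 sites named by rule, this block changed the calls of Cog3 (lysine-to-arginine, adjusted p = 0.0526) and uc007ahf.1 (0.0384). The mean difference of -12.4 points was -2.41 with no minimum level, -26.7 with a minimum of 5%, -8.81 with loci weighted equally and -11.8 as edited reads over all reads, and -13.0 to -11.9 with a library left out. Sites taken by their ADAR2-null level, a choice made after seeing the data, gave 618 calls and -12.1 points. The 144 sites with a greater loss under interferon became 41 with only the compared libraries, 374 with limma, 124 with the block and 61 to 131 with a library left out. The 14 sites that differed from ADAR1-null cells became 0 with only the compared libraries, 25 with limma, 6 with the block and 3 to 61 with a library left out. The causes were not tested. With only the compared libraries, calls were also lost at the named sites of Ifnar1, Mdc1, Gria3, Dnajc1, uc012aji.1, uc008wxi.1 and Zfp397 (both), the Blcap tyrosine-to-cysteine and glutamine-to-arginine sites and the Cog3 lysine-to-arginine site. Depth limits sites whose p150-knockout level is 0, at which only an upper limit can be given.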
